A study of Mus musculus with 20 samples.

Results

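The chemokines and chemokine receptors of mouse muscle and heart were followed here as 38 genes, chosen by name alone: every gene of the array annotation whose symbol is Ccl, Cxcl, Ccr, Cxcr, Cx3cl, Cx3cr, Xcl or Xcr followed by a number. They were measured by 43 of the 12488 probe sets of the array, and they are 38 of 8251 genes with a symbol. Ccl1, Cx3cl1 and Cxcl1 had 2 probe sets each and Cxcl12 had 3. A further 4 probe sets that list several symbols, among them names of the Ccl19, Ccl21 and Ccl27 families, could not be given to 1 gene and were left out.

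Chemokines are small secreted proteins that bind heparan sulphate on cell surfaces and vessel walls and draw leukocytes along their gradients. Their receptors are G protein-coupled receptors on the migrating cells. In injured skeletal muscle and heart, the CC ligands around Ccl2 are known for bringing in Ccr2-bearing monocytes, CXC ligands such as Cxcl1 for neutrophils, Cxcl9 and Cxcl10 for T and NK cells that carry Cxcr3, and Cxcl12 for cells that carry Cxcr4.

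Total RNA from female mice, 32 to 34 weeks old, was put on 20 Affymetrix MG_U74Av2 arrays, 5 in each of 4 groups. Quadriceps (the right one) and left ventricle came from C57BL/6 mice, which have normal dysferlin. The same tissues came from SJL/J mice, an inbred strain with a natural in-frame deletion of 171 bp in the dysferlin gene that removes 57 residues. Dysferlin helps to reseal the surface of muscle fibres. The whole animal carries the deletion, so strain and genotype cannot be told apart. No probe set of the annotation carried the dysferlin symbol alone, so the genotype was not checked in these values. The labels speak of 5 mice per group without tying an array to a mouse, so p-values measure the spread between these samples. The free text of the SJL/J quadriceps samples names left ventricle as their source, whereas their titles and source fields name quadriceps, and skeletal muscle markers summed to 54032 to 128627 on these arrays.

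Several arrays stood apart. Summed heart muscle markers reached 51752 on SJL/J quadriceps array 1 and 55196 on array 5, against 11532 to 23619 on the other 3 arrays of that group, and skeletal muscle transcripts were present on SJL/J left ventricle array 1 and C57BL/6 left ventricle array 5. For some members, results are therefore also given without these 4 arrays. Transcripts of the other tissue were also raised, to a lesser degree, on some arrays that were kept. The heart gene Ryr2 was 271.9 on SJL/J quadriceps array 3, against 2.6 and 10.1 on arrays 2 and 4. It was 139.5 on C57BL/6 quadriceps array 2, against 4.8 to 10 on the others. Skeletal muscle markers summed to 3834 on C57BL/6 left ventricle array 1, against 648 on array 2. The ratio of the Gapdh 5' to 3' probe sets, a sign of RNA integrity, was 0.503 ± 0.15 (SD, n = 5) in SJL/J and 0.831 ± 0.216 (SD, n = 5) in C57BL/6 quadriceps (exact two-sided permutation test, adjusted p = 0.0397). In left ventricle it was 0.3 ± 0.134 (SD, n = 5) against 0.797 ± 0.0799 (SD, n = 5) (exact two-sided permutation test, adjusted p = 0.0159), with no overlap between strains. Hybridisation times separate 5 runs. Only run 5 holds quadriceps arrays of both strains (3 SJL/J and 1 C57BL/6) and only run 3 left ventricle arrays of both (1 and 1). C57BL/6 quadriceps arrays 1, 2, 3 and 5 were of 1 chip lot and all other arrays of another. Apart from array 4, chip lot therefore cannot be told apart from strain in quadriceps or from tissue in C57BL/6. In bulk tissue, fewer cells of a type and less RNA per cell cannot be told apart.

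**Figure D1:**
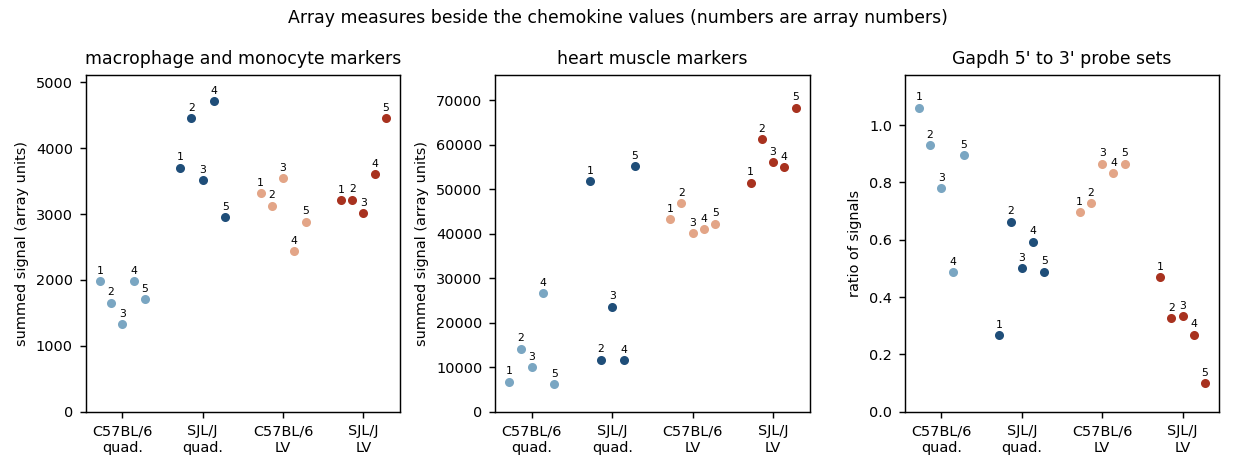
The panels show, for each of the 20 arrays by group, the summed signal of macrophage and monocyte markers, the summed signal of heart muscle markers, and the Gapdh 5' to 3' ratio. Macrophage sums in SJL/J quadriceps (2951 to 4714) lie above those in C57BL/6 quadriceps (1330 to 1983), SJL/J quadriceps arrays 1 and 5 have heart marker sums like those of left ventricle, and the Gapdh ratio is lower in SJL/J left ventricle than in C57BL/6 left ventricle on every array.

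Most of the family was dim. A gene was tested where a group's mean log2 signal was above that of the median signal of the series, 68.8, and 13 of the 38 genes passed, against 5392 of all genes. Ccl9, Ccl22, Cx3cl1, Cx3cr1 and Cxcl12 were above this level in all 4 groups. Ccl2, Ccl8 and Ccl11 were above it in 1 group each, so that their passing was tied to the group in which they are high. The other 25 genes were under it in every group, and 19 of them on every array. For these dim members a second limma fit over all 12422 non-control probe sets, without the filter, gives the test, and each such value is named as coming from the fit without the filter. Fold changes of dim signals near background are uncertain in size, and for some members they depended on the floor, as given below.

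Of the inflammatory CC ligands, 5 were bright enough to be tested in quadriceps, and of these 0 rose and 1, Ccl11, fell. In the gene table of GRCm38.p6, Ccl2, Ccl7, Ccl11, Ccl12, Ccl8 and Ccl1 follow each other in this order on chromosome 11 with no other protein-coding gene between them. Of these 6 neighbours, Ccl2, Ccl7 and Ccl12 were higher in every SJL/J quadriceps array than in any C57BL/6 quadriceps array, and Ccl11 was lower in every one. Ccl1 and Ccl8 overlapped between the strains. Of all probe sets, 4.19% were higher on every SJL/J quadriceps array and 3.24% lower. In another row of neighbours on chromosome 11, Ccl5, Ccl9, Ccl6, Ccl3 and Ccl4, only Ccl9 was apart, as higher. Whether position plays a part was not tested.

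Ccl2, the ligand of Ccr2 and the best known monocyte attractant, had signals of 34.3, 30.2, 11.5, 7.4 and 31.4 on C57BL/6 quadriceps arrays 1 to 5. On SJL/J quadriceps arrays it had 90.1, 50.4, 44.2, 66.5 and 41.0. The groups did not overlap, but the C57BL/6 arrays spread widely: the limma log2 difference was 1.53 ± 0.48 (SE), with an adjusted p of 0.0586, which does not pass the 0.05 threshold. Within run 5 alone the difference was 2.84. Without the arrays carrying transcripts of the other tissue it was 1.45 ± 0.58, in the fit without the filter.

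Ccl7, which binds Ccr2 and other CC receptors, had signals of 17.4, 19.8, 16.3, 11.1 and 14.1 in C57BL/6 quadriceps and of 41.7, 42.1, 48.2, 36.6 and 40.0 in SJL/J quadriceps. All values were under the filter, the groups were far apart and each was narrow. In the fit without the filter Ccl7 rose by a log2 difference of 1.43 ± 0.26 (SE; limma adjusted p = 0.0132), and by 1.44 ± 0.32 (adjusted p = 0.0455) without the 4 arrays. With a floor of 32 it was 0.38 (adjusted p = 0.0136), and the call was lost with the Gapdh ratio as a covariate (1.6, adjusted p = 0.0545) and with the replicate block (1.43, adjusted p = 0.0602).

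Ccl12, a Ccr2 ligand of the mouse, had signals of 10.9, 6.0, 10.3, 8.3 and 5.7 in C57BL/6 quadriceps and of 15.2, 19.5, 27.9, 42.0 and 37.0 in SJL/J quadriceps. It too was dim on every array and higher on every SJL/J array. The log2 difference was 1.73 ± 0.36 (SE; limma adjusted p = 0.0224 in the fit without the filter). With a floor of 32 the difference was 0.12 (adjusted p = 0.507), and leaving out any 1 of SJL/J arrays 3 and 4 or C57BL/6 arrays 2 and 5 ended the call (adjusted p 0.0516 to 0.0614).

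The RefSeq promoter table of GRCm38.p6 held entries for 30 of the 38 genes, and Ccl2, Ccl7 and Ccl11 are not among them. The neighbours Ccl12, Ccl8 and Ccl1 have entries, and Ccl12 is shown, the one of them called in quadriceps in the fit without the filter. Its 250 bases before the start, chr11:82101595-82101844 on the plus strand, hold a TATA box match 31 to 26 bases before the start, in capitals.
Ccl12: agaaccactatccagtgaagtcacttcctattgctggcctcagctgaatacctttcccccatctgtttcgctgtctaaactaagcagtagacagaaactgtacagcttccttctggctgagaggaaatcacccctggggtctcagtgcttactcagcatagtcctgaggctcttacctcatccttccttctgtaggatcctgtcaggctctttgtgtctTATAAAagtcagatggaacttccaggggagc
The letters TATAAA, searched on both strands, occur in 12.4% of all 32851 promoters of this length and in 9 of the 32 promoters of members.

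Ccl11, eotaxin, which attracts eosinophils through Ccr3, ran the other way. Its signals were 50.4, 58.2, 46.3, 87.7 and 144.5 in C57BL/6 quadriceps and 12.2, 23.1, 18.1, 40.8 and 17.3 in SJL/J quadriceps. The lowest C57BL/6 value lay above the highest SJL/J value. Ccl11 fell by 1.78 ± 0.42 on the log2 scale (SE, limma adjusted p = 0.0186), the one call among the 13 tested members in quadriceps. It passed the filter only through C57BL/6 quadriceps, and the limma fit without the filter gave an adjusted p of 0.0349. In the fit with the filter, the difference without the 4 arrays was -1.45 ± 0.44 (adjusted p = 0.0638). The call was also lost with run as a block (-1.77, adjusted p = 0.102), chip lot as a block (-2.1, adjusted p = 0.0786) or the Gapdh ratio as a covariate (-1.49, adjusted p = 0.154). In left ventricle its signals were 6.9 to 30.3 in C57BL/6 and 8.9 to 40.7 in SJL/J, and the difference was 0.21 ± 0.52. The difference of the strain differences (quadriceps minus left ventricle) was -1.99 ± 0.70 (adjusted p = 0.0561), which did not pass.

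Ccl9, a ligand of Ccr1 made by myeloid cells, was bright. In C57BL/6 quadriceps it had signals of 205.3, 97.2, 10.7, 96.6 and 190.7, and in SJL/J quadriceps 243.9, 314.5, 264.4, 437.1 and 217.3. The groups did not overlap, yet C57BL/6 array 3 was far below the others, and the log2 difference of 1.79 ± 0.65 did not pass (adjusted p = 0.0914). Ccl8, which in the mouse acts through Ccr8, had signals of 60.0, 69.8, 16.4, 26.0 and 35.1 against 87.6, 153.1, 92.9, 129.2 and 15.3. All SJL/J arrays but array 5 were above every C57BL/6 array, and the difference was 1.06 ± 0.60 (adjusted p = 0.269).

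Ccr2, the receptor shared by Ccl2, Ccl7 and Ccl12 and carried by inflammatory monocytes, had signals of 38.8, 32.5, 31.1, 12.0 and 33.0 in C57BL/6 quadriceps. In SJL/J quadriceps it had 91.2, 65.6, 46.2, 60.9 and 41.9. Every SJL/J value lay above every C57BL/6 value. The log2 difference in the fit without the filter was 1.10 ± 0.37 (SE; limma adjusted p = 0.118), short of the threshold. With run as a block, Ccr2 had 2.25 ± 0.48 (adjusted p = 0.0251) and Ccl2 2.84 ± 0.71 (adjusted p = 0.0426), both past it. In the same fit Ccr4 passed as lower (-2.7 ± 0.49, adjusted p = 0.0128), and Ccl7 (1.92 ± 0.41, adjusted p = 0.0243) and Cxcl14 (1.51 ± 0.28, adjusted p = 0.0145) passed as higher. That fit rests on C57BL/6 array 4 alone, which has the lowest Ccl2 (7.4), Ccr2 (12) and Cxcl14 (54.5) and the highest Ccr4 (90.2) of its group.

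**Figure D2:**
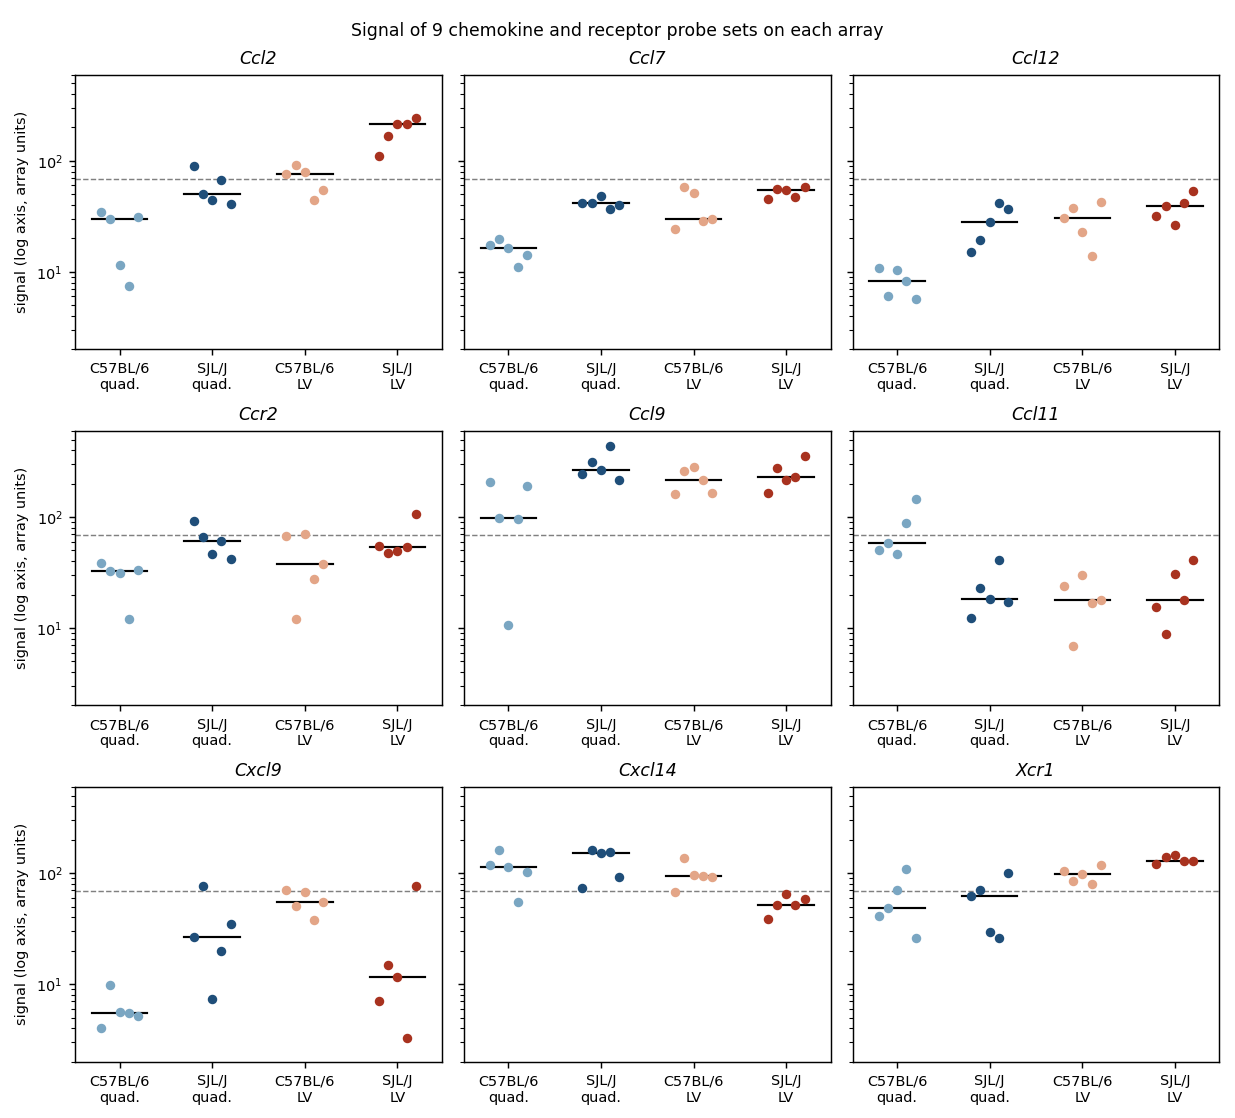
Each panel shows 1 gene: the deposited signal on a log axis for the 5 arrays of each group, with a black line at the median and a dashed line at the filter signal of 68.8. In quadriceps the SJL/J points of Ccl2, Ccl7, Ccl12, Ccr2 and Ccl9 lie above all C57BL/6 points and those of Ccl11 below them; in left ventricle the SJL/J points of Ccl2 and Xcr1 lie above and those of Cxcl14 below.

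Set against all features, 1 of 13 tested members was called in quadriceps (7.69%), where 11.8% of all tested genes were called. Without the filter 3 of 43 probe sets were called (6.98%), against 5.31% of all probe sets. Probe sets with every SJL/J array above every C57BL/6 array were 5 of 43 (11.6%), against 4.19% of all probe sets, and those with every array below were 1 of 43 (2.33%), against 3.24%. The median log2 difference over the 43 probe sets was 0.16, and over all probe sets 0.07. The share called was near the background.

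Markers of other cell types also differed between the strains in quadriceps. Of 15 tested macrophage and monocyte markers 10 rose and 0 fell, and their summed signal over the 21 markers on the array, Ccr2 among them, was 2951 to 4714 in SJL/J against 1330 to 1983 in C57BL/6. Dendritic cell markers summed to 1611 to 2180 against 1019 to 1365, without overlap, and 2 of 5 tested rose, Cd74 and Itgax. Of 6 tested adipocyte markers 3 rose, Cidea, Ucp1 and Fabp4, with sums of 1162 to 5556 against 1166 to 1764. T and NK cell markers summed to 330 to 609 against 221 to 565, with 1 of 3 tested, Zap70, higher (1.32 ± 0.39, adjusted p = 0.0445), and Cd3e did not exceed 25 on any array of the series. The part of cell numbers in the chemokine values was not tested.

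In left ventricle, Ccl2 rose. Its signals were 75.9, 91.5, 79.3, 44.7 and 55.0 in C57BL/6 and 109.6, 166.2, 214.6, 216.6 and 241.6 in SJL/J, with no overlap. Ccl2 passed the filter only through this SJL/J group, and the limma fit without the filter gave an adjusted p of 0.00428. In the fit with the filter, the log2 difference was 1.45 ± 0.24 (SE, limma adjusted p = 0.000844), and 1.56 ± 0.23 (adjusted p = 0.000457) without the 4 arrays. With the Gapdh ratio as a covariate it was 0.77 (adjusted p = 0.276), and with run as a block, where 1 array stands against 1, it was 0.99 (adjusted p = 0.438).

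The neighbours of Ccl2 did not follow it past the threshold in the heart. Ccl7 had signals of 24.3, 57.7, 51.4, 28.8 and 29.7 in C57BL/6 and 44.9, 56.0, 54.1, 47.4 and 58.1 in SJL/J left ventricle, a difference of 0.52 ± 0.26 (adjusted p = 0.219 in the fit without the filter). Ccl12 had signals of 13.8 to 42.7 against 26.5 to 53.5 and a difference of 0.45 ± 0.33 (adjusted p = 0.406). Ccr2 had signals of 66.9, 12.1, 70.5, 27.8 and 37.8 against 55.0, 47.4, 49.5, 54.0 and 105.7, and a difference of 0.72 ± 0.47 (adjusted p = 0.341). These groups overlapped. Of the 15 tested macrophage markers 4 rose and 3 fell, where 33.8% of all tested genes were called. The macrophage sums overlapped, at 2442 to 3546 in C57BL/6 and 3020 to 4454 in SJL/J.

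Ccl9 and Ccl8 did not pass either. Ccl9 had a difference of 0.19 ± 0.21 (adjusted p = 0.525). Ccl8 had signals of 16.9 to 57.8 in C57BL/6 and 45.2, 21.2, 56.2, 44.3 and 252.9 in SJL/J, where array 5 was far above the rest, and a difference of 1.33 ± 0.57 (adjusted p = 0.0874). The same array held the highest Ccl5, a T cell and monocyte attractant (112.8, the others 12.1 to 17.3), the highest Cxcl13, which attracts B cells (76.2, the others 1.7 to 16.6), the highest Ccr2 and the highest Cxcl9 of its group. It also had the highest macrophage sum of its group, 4454, a neutrophil marker sum of 724 and the lowest Gapdh ratio of the series, 0.1008.

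Cxcl14, an epithelial and stromal CXC ligand whose receptor is debated, fell in the SJL/J left ventricle. Its signals were 68.2, 138.1, 95.5, 95.2 and 93.3 in C57BL/6 and 38.3, 51.4, 64.7, 51.7 and 59.1 in SJL/J, the highest SJL/J value under the lowest C57BL/6 value. The log2 difference was -0.87 ± 0.21 (SE; limma adjusted p = 0.00748). It was -1.14 (adjusted p = 0.106) with the Gapdh ratio as a covariate and -1.28 (adjusted p = 0.284) with run as a block. In quadriceps the signals overlapped, at 54.5 to 162.1 against 74.2 to 160.4, with a difference of 0.22 ± 0.31. The difference of the strain differences (quadriceps minus left ventricle) was 1.09 ± 0.39 (adjusted p = 0.0601).

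Cxcl14 is shown because it is a called CXC ligand with an interferon-type match. Its 250 bases before the start, chr13:56296552-56296801 on the minus strand, hold matches to a GAS element (TTCNNNGAA, searched on both strands) 191 to 183 bases before the start and to an ISRE (GAAA and GAAA with 2 bases between, both strands) 172 to 163 bases before it, both in capitals.
Cxcl14: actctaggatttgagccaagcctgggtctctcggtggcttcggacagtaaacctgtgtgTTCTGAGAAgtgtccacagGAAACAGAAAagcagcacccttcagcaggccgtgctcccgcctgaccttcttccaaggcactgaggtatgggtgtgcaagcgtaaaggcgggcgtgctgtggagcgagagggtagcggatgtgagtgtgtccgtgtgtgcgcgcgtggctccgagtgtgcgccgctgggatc
The GAS letters occur in 7.02% of all promoters of this length and in 3 of the 32 promoters of members, those of Ccl17, Ccr6 and Cxcl14. The ISRE letters occur in 2.98% and in 2 of 32, those of Cxcl10 and Cxcl14. A match is a description of the letters and not a binding site.

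Xcr1, the receptor for Xcl1 on cross-presenting dendritic cells, rose slightly in left ventricle. Its signals were 104.0, 84.6, 98.4, 79.4 and 118.7 in C57BL/6 and 121.8, 140.3, 146.6, 129.7 and 129.8 in SJL/J, with no overlap. The log2 difference was 0.47 ± 0.14 (SE; limma adjusted p = 0.0218). The call was lost without C57BL/6 array 4 (adjusted p = 0.0585) as it was when SJL/J array 3 was left out (adjusted p = 0.0524), and within run 3 the difference was 0.04. Its ligand Xcl1 was dim, with signals of 20.9 to 36.3 against 12.3 to 44.9 and a difference of -0.19 ± 0.36. The summed dendritic cell markers, which include Xcr1 itself, were 1864 to 2624 in SJL/J and 1406 to 1858 in C57BL/6 left ventricle, without overlap. Of the 5 dendritic cell markers tested, only Xcr1 itself was called, where 33.8% of all tested genes were called. Their part in the Xcr1 value was not tested.

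Cxcl12, a constitutive stromal and endothelial ligand of Cxcr4, gave different answers from its 3 probe sets. The brightest, 100112_at, had signals of 769.5, 990.4, 938.9, 1043.9 and 964.5 in C57BL/6 and 857.1, 1017.4, 798.3, 760.8 and 644.8 in SJL/J left ventricle, overlapping groups with a log2 difference of -0.22 ± 0.13 (adjusted p = 0.206). Probe set 160511_at had signals of 157.6, 196.9, 141.0, 147.9 and 144.3 in C57BL/6 and 327.0, 329.7, 360.1, 396.6 and 451.4 in SJL/J left ventricle. These did not overlap, and the difference was 1.24 ± 0.12 (SE; limma adjusted p = 0.000142 in the fit without the filter); with run as a block it was 1.18 (adjusted p = 0.182). Probe set 162234_f_at had signals of 318.4 to 385.2 against 276.2 to 471.7 and a difference of 0.15 ± 0.13.

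In quadriceps none of the Cxcl12 probe sets separated the strains. Probe set 160511_at had signals of 99.2 to 210.3 in C57BL/6 and 102.1 to 186.3 in SJL/J, a difference of -0.27 ± 0.23. The strain difference of this probe set differed between the tissues by -1.51 ± 0.27 (quadriceps minus left ventricle; limma adjusted p = 0.00192 in the fit without the filter); with run as a block this was -0.83 (adjusted p = 0.325). Probe set 100112_at was uneven in SJL/J quadriceps, with 487.4 and 623.2 on arrays 1 and 5 and 168.3 to 263.6 on the other 3. Arrays 1 and 5 had the highest heart marker sums of this group. Which Cxcl12 transcripts each probe set reads was not analysed here.

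**Figure D3:**
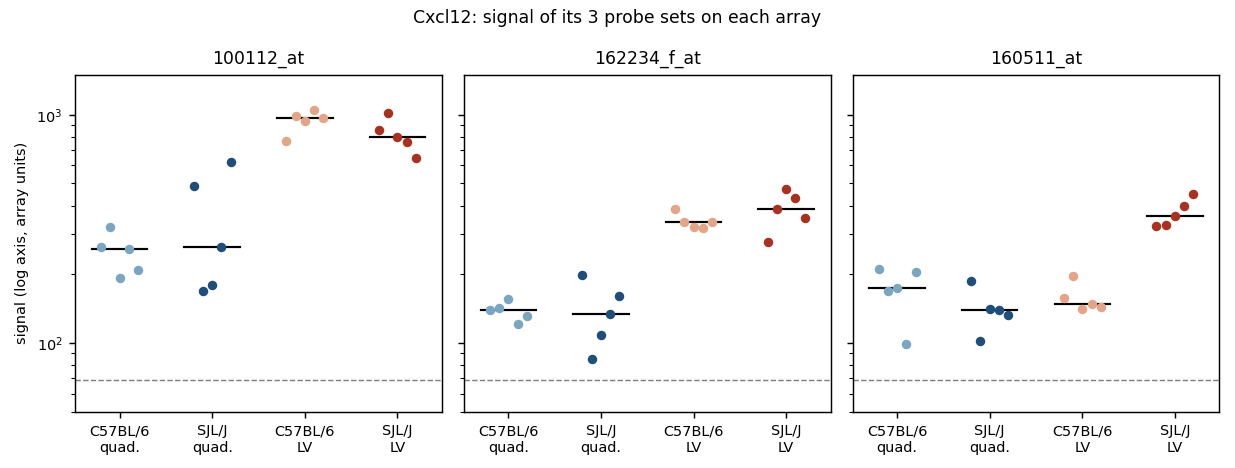
The panels show the signal of the 3 Cxcl12 probe sets on a log axis for the 5 arrays of each group, with medians as black lines and the filter signal of 68.8 dashed. In C57BL/6, 100112_at and 162234_f_at are higher in left ventricle than in quadriceps, whereas 160511_at is not and stands out in SJL/J left ventricle (327.0 to 451.4).

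Cxcl9, an interferon-gamma-induced ligand of Cxcr3 on activated T and NK cells, differed between the strains in opposite directions in the tissues. Its signals were 4.0, 9.9, 5.6, 5.5 and 5.2 in C57BL/6 quadriceps and 26.5, 76.8, 7.3, 19.7 and 34.6 in SJL/J quadriceps. In left ventricle they were 70.3, 50.9, 67.1, 38.0 and 54.5 in C57BL/6 and 7.1, 14.8, 11.7, 3.3 and 77.1 in SJL/J. In quadriceps 4 SJL/J arrays were above all C57BL/6 arrays, and in left ventricle 4 SJL/J arrays were below all C57BL/6 arrays while array 5 was above them.

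In the fit without the filter the log2 difference of Cxcl9 was 2.13 ± 0.55 in quadriceps (adjusted p = 0.0501) and -2.13 ± 0.70 in left ventricle (adjusted p = 0.0621), neither past the threshold. The difference of these strain differences (quadriceps minus left ventricle) was 4.26 ± 0.91 and passed (SE, limma adjusted p = 0.00763). With a floor of 32 it was 0.80 (adjusted p = 0.255), since most of these signals lie below that floor. Cxcl10, the neighbour with the same receptor, had signals of 5.3 to 21.4 over the series, and its strain differences were 0.54 ± 0.29 in quadriceps and -0.18 ± 0.44 in left ventricle. Cxcr3 differences were 0.54 ± 0.41 and -0.40 ± 0.33.

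Cxcl9 is shown because its strain difference changed with the tissue. Its 250 bases before the start, chr5:92328080-92328329 on the minus strand, hold a TATAAA match 195 to 190 bases before the start, in capitals.
Cxcl9: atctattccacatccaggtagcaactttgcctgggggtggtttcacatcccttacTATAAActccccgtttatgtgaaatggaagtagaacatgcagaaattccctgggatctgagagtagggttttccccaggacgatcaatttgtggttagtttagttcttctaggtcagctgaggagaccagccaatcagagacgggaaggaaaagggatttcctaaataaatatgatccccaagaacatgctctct

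The remaining call on the difference of the strain differences was Ccl25, a ligand of Ccr9 known from thymus and gut. Its signals were 31.7, 35.4, 11.3, 20.6 and 27.3 in C57BL/6 quadriceps and 7.0, 10.9, 9.9, 15.3 and 5.0 in SJL/J quadriceps. In left ventricle they were 2.5 to 5.4 and 4.6 to 7.7, close to the floor of 3.1. The difference of the strain differences was -2.01 ± 0.46 (limma adjusted p = 0.0119 in the fit without the filter), and with a floor of 16 it was -0.65 (adjusted p = 0.0622). The strain differences themselves did not pass, at -1.39 ± 0.41 (adjusted p = 0.0784) and 0.62 ± 0.21 (adjusted p = 0.0654).

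In left ventricle 3 of 13 tested members were called (23.1%), where 33.8% of all tested genes were called. Without the filter 4 of 43 probe sets were called (9.3%), against 17.3%. Probe sets with SJL/J above C57BL/6 on every array were 3 of 43 (6.98%), against 6.84% of all probe sets, and those below were 1 of 43 (2.33%), against 7.24%. For the difference of the strain differences, 0 of 13 tested members passed in limma, with 3 at an unadjusted p under 0.05, where 16.2% of all tested genes passed. Without the filter 3 of 43 passed (6.98%), against 6.97%. These shares were near or under the background.

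**Figure D4:**
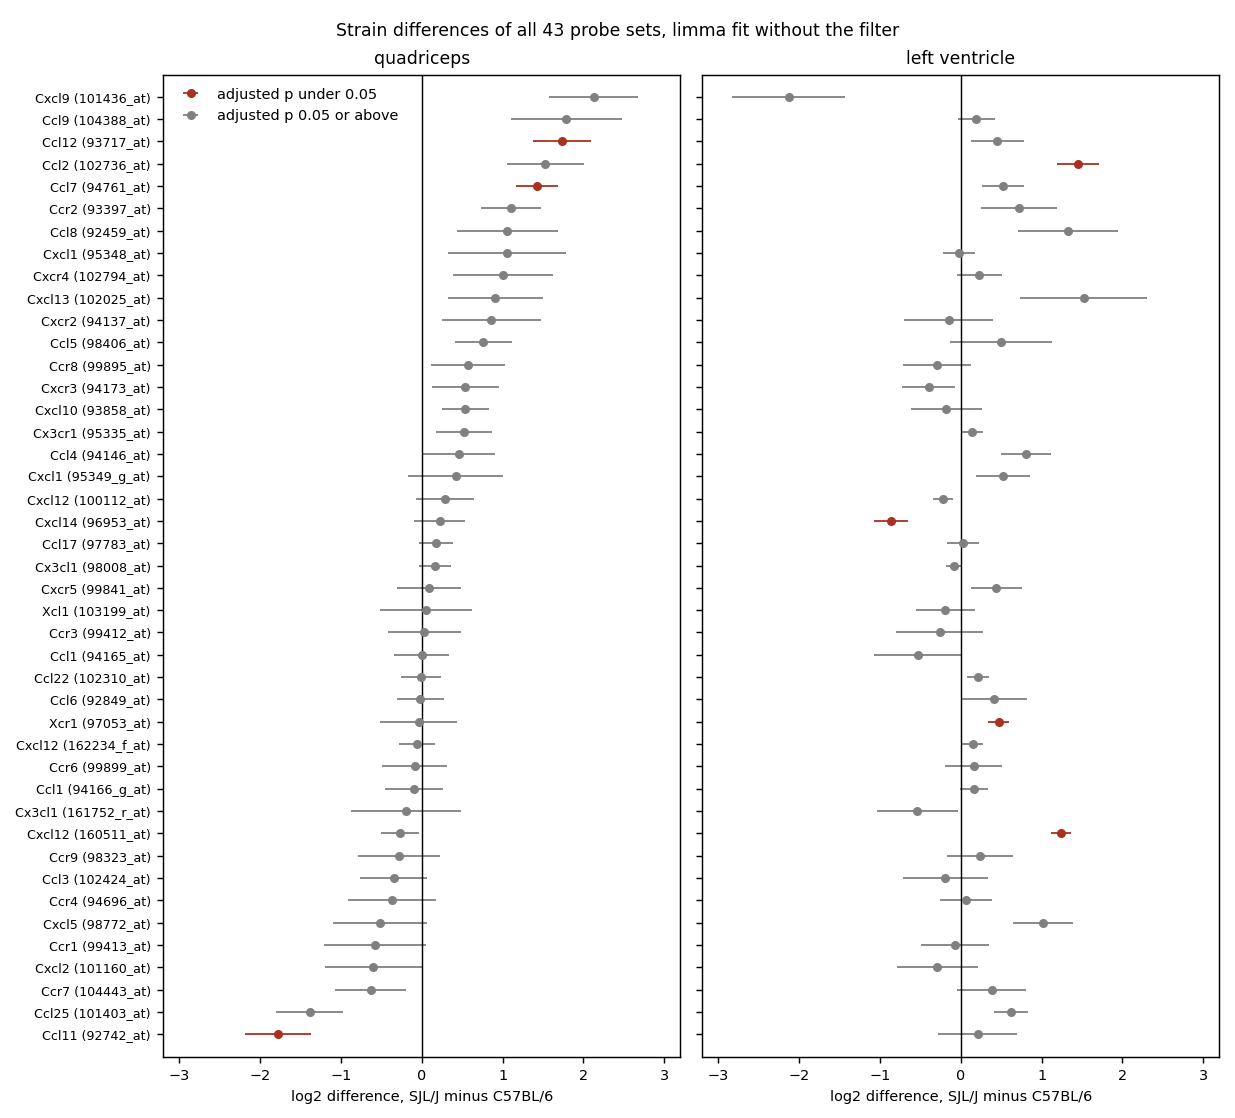
Points give the log2 difference, SJL/J minus C57BL/6, of all 43 probe sets in quadriceps (left) and left ventricle (right) from the limma fit without the filter, with bars of 1 SE and red marking an adjusted p under 0.05. The order is that of quadriceps; Cxcl9 is at 2.13 in quadriceps and -2.13 in left ventricle, and Ccl11 at -1.78 and 0.21.

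The other ligands showed no strain call. Among the CC ligands, Ccl3 and Ccl4, which attract monocytes and T cells, had differences of -0.35 ± 0.42 and 0.46 ± 0.44 in quadriceps and of -0.19 ± 0.52 and 0.81 ± 0.31 in left ventricle. Ccl6, a myeloid ligand, had -0.02 ± 0.29 and 0.41 ± 0.38. Ccl17 and Ccl22, the ligands of Ccr4, had 0.17 ± 0.21 and -0.01 ± 0.25 in quadriceps and 0.03 ± 0.20 and 0.21 ± 0.15 in left ventricle. None of these ligands separated the strains on every array in either tissue.

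The neutrophil-attracting CXC ligands Cxcl1, Cxcl2 and Cxcl5 were also without a strain call. Cxcl1 had 1.05 ± 0.74 in quadriceps and -0.02 ± 0.21 in left ventricle at its brighter probe set, and Cxcl5 had -0.52 ± 0.58 and 1.02 ± 0.37 (adjusted p = 0.0881 in left ventricle). Cx3cl1, the membrane-bound fractalkine, had 0.16 ± 0.21 and -0.09 ± 0.11 at its brighter probe set. Its receptor Cx3cr1, found on resident monocytes and macrophages, had 0.52 ± 0.34 and 0.14 ± 0.15. At these probe sets Cx3cl1 and Cx3cr1 were among the bright members, so that their small differences are measured with small errors in the heart. The dimmer Cx3cl1 probe set, 161752_r_at, had -0.2 ± 0.68 and -0.54 ± 0.5 in the fit without the filter.

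The receptors were dim as a group. Of 8 CC receptors on the array none passed the filter, and of 6 CXC, CX3C and XC receptors only Cx3cr1 and Xcr1 did. Ccr1, Ccr3, Ccr4, Ccr6, Ccr7, Ccr8, Ccr9, Cxcr2, Cxcr3, Cxcr4 and Cxcr5 had strain differences between -0.63 (Ccr7) and 1 (Cxcr4) in quadriceps and between -0.40 (Cxcr3) and 0.44 (Cxcr5) in left ventricle, and all overlapped between the strains. Of these, Ccr4 passed in quadriceps with run as a block, as given above. Single arrays carried their high values, such as 109.1 for Ccr1 and 90.2 for Ccr4 in C57BL/6 quadriceps.

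The tissues of the normal strain differed more, in the family as over all genes. In C57BL/6, 7 of 13 tested members differed between left ventricle and quadriceps (53.8%), where 50.5% of all tested genes did. Without the filter 14 of 43 probe sets did (32.6%), against 30.4%. The shares called were near the background. Probe sets with left ventricle above quadriceps on every array were 8 of 43 (18.6%), against 14.2% of all probe sets, and those below 2 of 43 (4.65%), against 9.29%. These C57BL/6 arrays are the same controls as in the strain comparisons. All but 1 of the C57BL/6 left ventricle arrays were in run 2 and all but 1 of the quadriceps arrays in run 1, and no run holds both of these groups. With run as a random block, 3 members were called.

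Cxcl12 had the smallest adjusted p of the 7. Its 100112_at signals were 264.0, 321.9, 193.1, 257.1 and 209.1 in C57BL/6 quadriceps, against 769.5 to 1043.9 in left ventricle, and it rose by a log2 difference of 1.93 ± 0.16 (SE; limma adjusted p = 1.01e-06). Probe set 162234_f_at rose by 1.31 ± 0.10 (adjusted p = 8.33e-06 in the fit without the filter), and 160511_at did not, at -0.09 ± 0.21. The summed endothelial markers were 4435 to 6320 in left ventricle and 1454 to 1677 in quadriceps of this strain, and their part in the Cxcl12 value was not tested.

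Ccl2 was higher in the normal heart than in normal quadriceps by 1.79 ± 0.45 (adjusted p = 0.00568), without overlap. Xcr1 was higher by 0.87 ± 0.33 (adjusted p = 0.0437). Cx3cl1 had signals of 124.4, 144.1, 165.2, 212.1 and 102.7 in quadriceps and 254.8, 206.9, 254.3, 233.6 and 200.7 in left ventricle, a rise of 0.66 ± 0.19 (adjusted p = 0.0119). Quadriceps array 4 overlapped with left ventricle. The second, dimmer Cx3cl1 probe set, 161752_r_at, did not rise. It had -0.17 ± 0.37 (limma adjusted p = 0.783 in the fit without the filter), with overlapping groups.

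Cxcl1, the main neutrophil attractant of the mouse, had signals of 33.3, 5.3, 5.3, 62.6 and 16 in quadriceps and 80.3, 76.0, 89.7, 49.0 and 61.3 in left ventricle of C57BL/6. It rose by 2.16 ± 0.63 (SE, limma adjusted p = 0.0126), with quadriceps array 4 (62.6) overlapping left ventricle. This probe set, 95348_at, passed the filter only through the left ventricle groups. The limma fit without the filter gave it an adjusted p of 0.0301. The second probe set, 95349_g_at, rose by 2.09 ± 0.38 (adjusted p = 0.00171 in the fit without the filter). Cxcl1 is shown because both probe sets were called here. Its 250 bases before the start, chr5:90890995-90891244 on the plus strand, hold matches to an NF-kB element (GGG and TTTCC with 2 bases between, searched on both strands) 89 to 80 and 71 to 62 bases before the start, in capitals.
Cxcl1: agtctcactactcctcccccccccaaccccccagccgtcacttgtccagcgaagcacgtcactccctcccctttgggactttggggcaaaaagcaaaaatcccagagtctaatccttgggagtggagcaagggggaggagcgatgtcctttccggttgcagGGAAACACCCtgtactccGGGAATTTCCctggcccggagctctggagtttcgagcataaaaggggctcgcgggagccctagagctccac
These letters occur in 1.41% of all promoters of this length and in 4 of the 32 promoters of members, those of Ccl9, Ccr3, Cxcl1 and Cxcl2.

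Ccl11 and Ccl6 were lower in the normal heart. Ccl11 fell by 2.04 ± 0.45 on the log2 scale (SE, limma adjusted p = 0.0022). The limma fit without the filter gave an adjusted p of 0.00566. Every Ccl11 value in C57BL/6 quadriceps lay above every value of the other 3 groups. Ccl6 had signals of 96.1, 78.3, 95.5, 67.6 and 63.3 in quadriceps and 25.7, 85.8, 42.9, 45.0 and 49.5 in left ventricle, a difference of -0.77 ± 0.30 (adjusted p = 0.045) in which left ventricle array 2 overlapped with quadriceps. The Ccl6 call was lost in 7 of the 10 fits that leave out 1 array and the Xcr1 call in 8. Both calls were also lost in the limma fit without the filter (adjusted p = 0.0762 for Ccl6 and 0.0815 for Xcr1).

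Among the dim members, the fit without the filter called higher levels in the normal heart for Cxcl9 (3.25 ± 0.30, adjusted p = 2.25e-05), Ccl12 (1.78 ± 0.36, adjusted p = 0.00325) and Ccl7 (1.23 ± 0.31, adjusted p = 0.0129). It also called Ccl5 (1.57 ± 0.40, adjusted p = 0.0129), Cxcr4 (1.71 ± 0.42, adjusted p = 0.0107) and Cxcr3 (1.04 ± 0.35, adjusted p = 0.0471) higher, and Ccl25 lower (-2.52 ± 0.33, adjusted p = 0.000247). For Cxcr4 the signals were 2.1 to 12.8 in quadriceps and 8.5 to 19.1 in left ventricle, so that with a floor of 32 no difference was left. The Cxcr3 call was lost in 8 of the 10 fits that leave out 1 array.

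Genes around the family were taken from lists of relatives, of receptor signalling and of inducers. The atypical receptor Ackr3, which scavenges Cxcl12, rose by 0.33 ± 0.12 in SJL/J left ventricle (limma adjusted p = 0.0426) and had 0.75 ± 0.40 (adjusted p = 0.239) in quadriceps. Ccrl2, a chemerin-binding relative, was not called in either tissue. These were the 2 tested of 8 relatives on the array.

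Of 19 tested genes of chemokine receptor signalling, 5 rose and 0 fell in SJL/J quadriceps, where 11.8% of all tested genes were called, with a median log2 difference of 0.50 against 0.09 over all tested genes. They included Stat3, a transcription factor downstream of cytokine receptors (0.76 ± 0.14, adjusted p = 0.00571), Gnb1, a G protein beta subunit (0.72 ± 0.16, adjusted p = 0.0128), Gnai2, the G protein alpha subunit that couples to chemokine receptors (0.66 ± 0.16, adjusted p = 0.0216), and Prkcd, a protein kinase C (0.69 ± 0.17, adjusted p = 0.0218). In left ventricle 5 rose and 2 fell, where 33.8% of all tested genes were called, with a median of 0.23 against 0.04. Jak2, a cytokine receptor kinase, rose by 0.98 ± 0.15 (adjusted p = 0.00041), the GTPase Rac1 by 0.51 ± 0.12 (adjusted p = 0.00561) and Gnb1 by 0.54 ± 0.14 (adjusted p = 0.0104), while Gnb2 fell by 1.01 ± 0.23 on the log2 scale (adjusted p = 0.00478).

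Of 10 tested inducers of chemokine genes, 4 rose and 0 fell in quadriceps (background 11.8%), with a median of 0.63. These were the interferon-regulated factors Irf1 (0.82 ± 0.15, adjusted p = 0.00554) and Irf9 (1.63 ± 0.37, adjusted p = 0.0161), the TNF receptor Tnfrsf1a (1.15 ± 0.25, adjusted p = 0.0122) and the Toll-like receptor adaptor Myd88 (1.41 ± 0.36, adjusted p = 0.0266). In left ventricle Irf9 (0.97 ± 0.12, adjusted p = 0.000112) and Irf8 (0.61 ± 0.17, adjusted p = 0.0143) rose, and Rela, an NF-kB subunit, fell by 0.96 ± 0.13 on the log2 scale (adjusted p = 0.000179), with a median of 0.20 over the list and a background of 33.8%. Many of these genes are also expressed by macrophages, whose summed markers are given above.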

How the data were processed

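Total RNA of 4 groups of 5 samples was measured on Affymetrix MG_U74Av2 arrays. The deposited values are 1 linear intensity per probe set and array, scaled by the authors to a common target; trimmed means were 199.4 to 199.9. The labels name no summarising software. Chip lots (2), wash protocols (2) and hybridisation times were read per the file headers, a gap of over 30 minutes starting a new run. The arrays' number limits the precision.

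Members and lists were chosen with earlier results of these data known. Signals were raised to at least 3.1, the 5th percentile, before taking log2. Genes were tested on their brightest probe set past the filter (5392 genes) with R 4.3.3 and limma 3.58.1 (linear model, empirical Bayes with a mean-variance trend, Benjamini-Hochberg over all genes, threshold 0.05); a second fit took all 12422 non-control probe sets. The code was tested on simulated data. Alternatives were floors of 16 and 32, centring, quantile normalization, no trend, all arrays in one fit, Gapdh ratio, run, chip lot or replicate as terms, and arrays left out. All 38 symbols matched GRCm38.p6 gene identifiers. The text names members called in any comparison or with strains apart on every array, others by range, and up to 4 called list genes per comparison.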

Additional observations from a re-analysis of the deposited data

Results flagged for a closer look

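In 16 of 172 probe set groups of the family (9.3%) 1 of the 5 arrays lay apart from the other 4 by the Dixon criterion of 0.71; over all probe sets the share was 9.72%, and chance gives about 1 in 20. On SJL/J left ventricle array 5 these were Ccl5 at 112.8, Ccr2 at 105.7 and Ccl22, low at 103, and in the same group Ccr3 was low at 2.5 on array 1, Ccr6 was high at 50.6 on array 4 and Cxcr3 was low at 16.3 on array 3. In C57BL/6 left ventricle Ccl8 was high at 57.8 on array 2, and on array 4 Ccl1 (94166_g_at) was low at 50.6 and Ccr1 at 7.5. In C57BL/6 quadriceps Ccl9 was low at 10.7 on array 3, and on array 4 Ccr2 was low at 12 and Ccr4 high at 90.2. In SJL/J quadriceps Ccl8 at 15.3 and Ccr1 at 6.3 were low on array 5, Ccl17 was high at 9.5 on array 1 and Ccl1 (94165_at) low at 6.6 on array 3.

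The strain difference differed between quadriceps and left ventricle, by the limma interaction without the filter, for Cxcl9 (4.26 on the log2 scale), Cxcl12 160511_at (-1.51) and Ccl25 (-2.01).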

How the results depend on the processing

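Of the alternatives for single genes, 487 kept direction and call, 92 lost the call and 1 reversed, Xcr1 between tissues with chip lot as a block (-0.18). The cause of these changes was not tested. Genes called in quadriceps, 1 in the reported fit, numbered 2 with a floor of 16, without the trend and with run as a block, 3 with a floor of 32, without the filter and with all 20 arrays in one fit, and 0 when the Gapdh ratio was a covariate. In left ventricle 3 became 0 with the Gapdh ratio and 0 with run as a block. For the difference of the strain differences 0 became 1 with floors of 16 or 32, median centring, no trend or the 4 arrays left out. It also became 1 with run or chip lot as a block or the replicate block, and 3 without the filter. Between tissues of C57BL/6, 7 became 12 without the filter and 3 with run as a random block or with chip lot as a block. In the fit without the filter, 3 probe sets in quadriceps became 1 with a floor of 32, 7 with all 20 arrays and 0 with the Gapdh ratio. They became 5 with run as a block and 0 with the replicate block. The 4 in left ventricle became 2 with the Gapdh ratio and 0 with run as a block. The 3 for the difference of the strain differences became 1 with run as a block. The 14 between tissues of C57BL/6 became 9 with a floor of 32 and 6 with run as a random block. Leaving out 1 array gave 1 to 2, 2 to 4, 0 to 1 and 5 to 7 genes for the 4 comparisons, and 1 to 3, 3 to 5, 3 to 4 and 11 to 14 probe sets. Chip lot as a block could not be fitted in left ventricle, where 1 lot was used. Settings combined with the missing filter were chosen after seeing the data.

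Same-numbered arrays did not deviate together (correlations -0.261 to 0.132). With so few arrays this cannot decide whether same-numbered samples of both tissues came from the same mouse. SJL/J quadriceps and left ventricle were not compared in this way. With the replicate block 1, 2, 1 and 5 genes and 0, 3, 3 and 11 probe sets were called. Dim signals, the single runs shared between strains, the chip lots and the lower Gapdh ratios in SJL/J limit what these arrays show.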
